A study of Mus musculus with 6 samples.

Results

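The genes described here build and drive the mitotic spindle: kinases and cyclins of mitotic entry, condensin, kinetochore and checkpoint proteins, spindle motors, the machinery of anaphase and the proteins of cytokinesis. They were chosen by function as a set of 54 gene symbols, with earlier results of these data known. All 54 were found among the 16472 genes of the authors' deposited table. The table compares HT22 cells, an immortalised mouse hippocampal line, exposed for 16 h to AA147 or to its vehicle DMSO, with 3 libraries in each group and 6 in all. The labels write the AA147 concentration as 10 mM. AA147 is a small molecule known to activate ATF6, a regulator of the endoplasmic reticulum stress response, and NRF2, a regulator of the oxidative stress response. All groups share the line and the medium, and nothing in the labels says whether the 3 libraries of a group came from separate cultures, so the p-values measure the spread between these libraries, which may be technical.

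Each gene has 1 line in the table, with its average normalized count, its log2 fold change and standard error (SE), and a raw and an adjusted p. Values of single libraries, their depth and the overlap between groups were not analysed here. The table does not name the numerator of the fold change. A positive value is read here as higher with AA147, so all directions given depend on that reading. A gene is called when its adjusted p, computed by the authors across all genes, is under 0.05.

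Mitosis is driven by cyclin-dependent kinase 1 bound to cyclin B, which together with Polo and Aurora kinases condenses the chromosomes and assembles the spindle. Kinetochores attach chromosomes to microtubules, the spindle checkpoint holds anaphase until all are attached, and the anaphase-promoting complex then releases the sister chromatids. Transcripts of most of these proteins are made in G2 and mitosis under the MuvB complex, B-MYB and FOXM1 and are low in resting cells, which is why they serve as markers of proliferation. In a bulk sample, more cells in G2 and mitosis and more mRNA per cell cannot be told apart.

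The mitotic genes leaned towards positive fold changes of small size. In the authors' deposited table, 30 of the 54 were called positive, 1 was called negative and 23 were not called. Of all 13597 genes with an adjusted p, 9.05% were called positive, 11.1% negative and 20.2% in either direction. Because abundant genes are called more often and 52 of the 54 had a mean of at least 1000, the closer background is the 5895 tested genes above that mean, of which 12.8% were called positive, 15.6% negative and 28.4% in either direction. The sign was positive for 51 of the 54 mitotic genes, against 51.8% of those 5895 genes. The median log2 fold change of the mitotic genes in the authors' deposited table was 0.21, which is a change of 15.4%, and that of the 5895 genes was 0.01. No mitotic gene reached an absolute log2 fold change of 0.5. Stricter tests left fewer calls: 11 with a Bonferroni adjustment, 1 (Ndc80) against a null interval of 0.2, and 0 with the DESeq2 statistic of the authors' deposited table divided by its robust SD of 2.03, where 15 had an unadjusted p under 0.05.

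**Figure D1:**
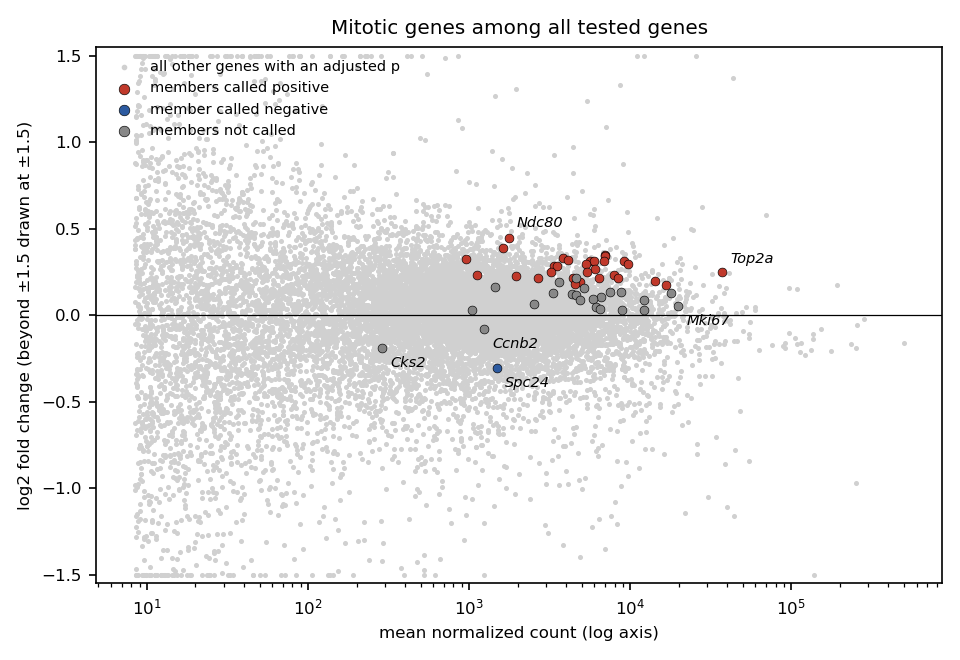
Mean normalized count (horizontal, log axis) against log2 fold change (vertical) for all genes with an adjusted p (light grey, values beyond 1.5 drawn at the edge) and for the mitotic genes, coloured by call. The mitotic genes sit in a narrow band mostly above 0, between -0.31 for Spc24 and 0.45 for Ndc80.

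These genes were well measured. Their means in the authors' deposited table ran from 287 for Cks2 to 37289 for Top2a, with a median of 5253, and their SEs spanned 0.052 to 0.19 around a median of 0.064. The smallest test statistic that led to a call anywhere in the table was 2.58, so at the median SE a log2 fold change of 0.17 was needed for a call. The smallest positive fold change called among the mitotic genes was that of Cdc20 at 0.17. Of the 23 genes not called, 15 had a 95% interval that held the median of 0.21. For 10 of these the interval held 0 as well, and for the other 5 (Hmmr, Birc5, Incenp, Cdk1 and Smc4) it lay above 0, although the adjusted p missed the threshold. The interval lay wholly below that median for 9 genes (Ccna2, Nuf2, Bub1b, Bub3, Ncapd2, Racgap1, Ccnb2, Cks2 and the called Spc24) and wholly above it for 4 (Ndc80, Nek2, Ect2 and Tpx2).

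**Figure D2:**
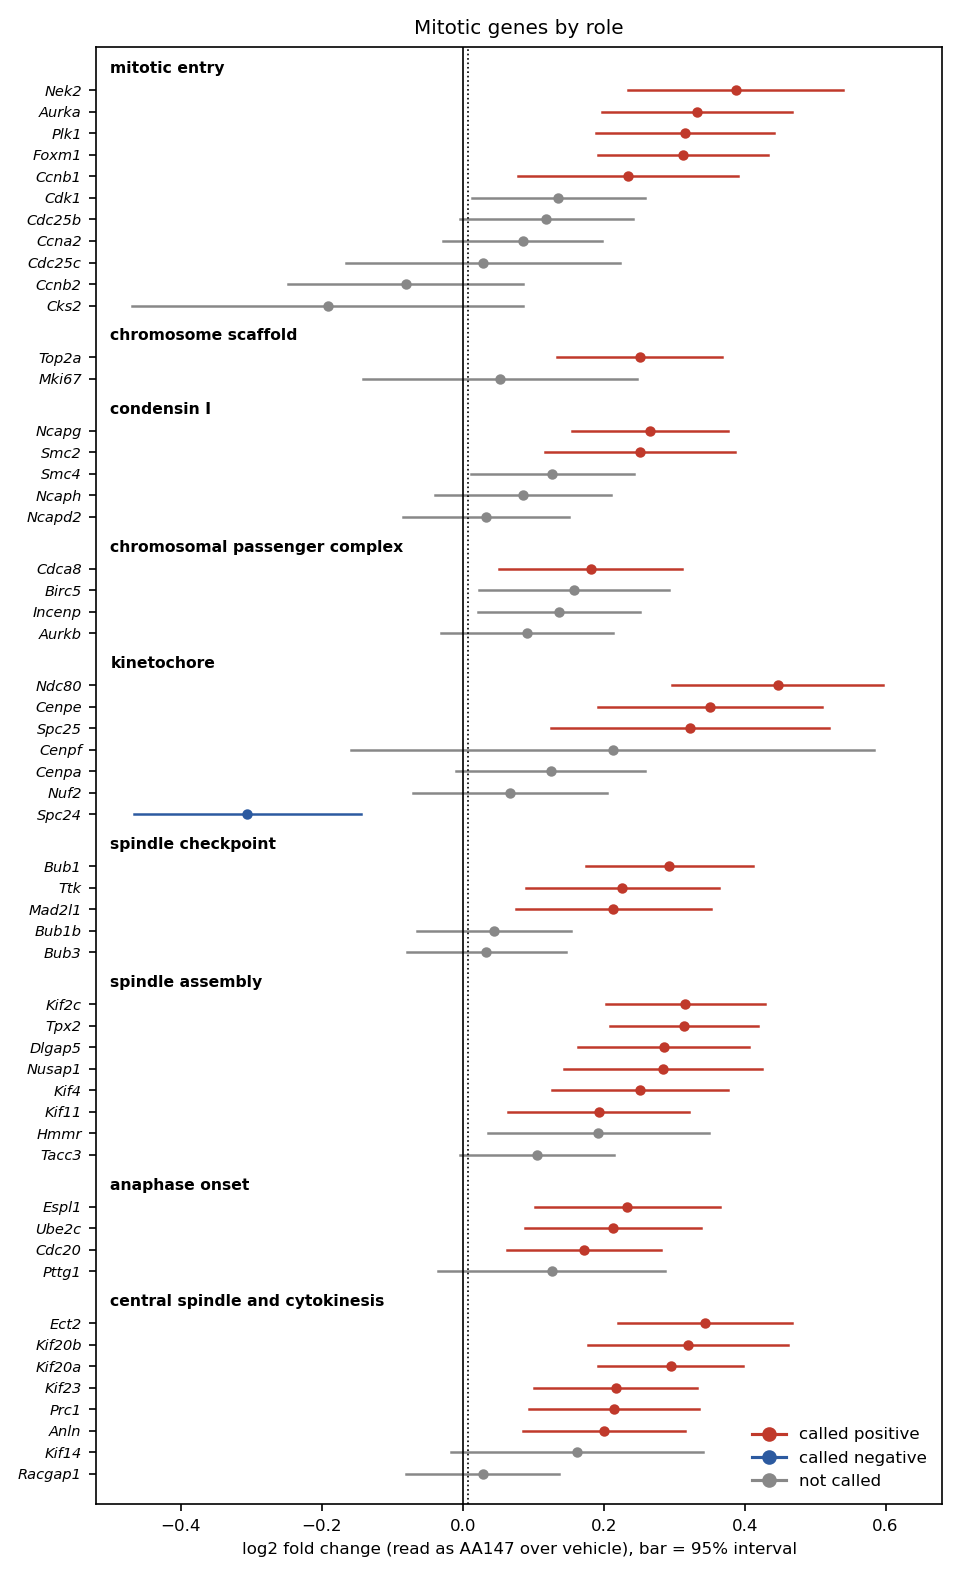
Log2 fold change of each mitotic gene with its 95% interval (1.96 SE on either side as a normal approximation), grouped by role, red for called positive, blue for called negative and grey for not called; the dotted line is the median of genes with a mean of at least 1000, at 0.01. Every role has called positive genes, and Spc24 is alone on the called negative side.

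Among the regulators of mitotic entry, the authors' deposited table had 5 of 11 genes called positive and 0 negative, with a median log2 fold change of 0.14. The largest value was that of Nek2, a centrosomal kinase that helps to separate the spindle poles, at 0.39 (SE 0.078, adjusted p 1.27e-05, by the authors' deposited table). Its mean of 1629 implies group averages of about 1411 and 1846 normalized counts. Aurka, the Aurora kinase of the spindle poles, had 0.33 (SE 0.069, adjusted p 2.95e-05, by the authors' deposited table), and Plk1, the Polo kinase that acts from mitotic entry to cytokinesis, had 0.31 (SE 0.064, adjusted p 1.92e-05). Foxm1, the transcription factor that switches on G2 and mitosis genes, had, in the authors' deposited table, 0.31 (SE 0.062, adjusted p 8.69e-06). Of the genes of the activating MuvB complex, Mybl2 (B-MYB) and Lin9, which are outside the set of 54 and were not called, lay at 0.02 (adjusted p 0.92) and 0.17 (adjusted p 0.149, by the authors' deposited table). Lin37, Lin52, Lin54 and Rbbp4 of the same complex were not called either. These genes lay at 0.13, -0.08, 0.12 and 0.05 (adjusted p 0.564, 0.71, 0.364 and 0.551, by the authors' deposited table).

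The cyclin B genes differed from each other. Ccnb1, cyclin B1, was called at 0.23 (SE 0.080, adjusted p 0.021, by the authors' deposited table), while Ccnb2, cyclin B2, had a negative value of -0.08 (SE 0.085, adjusted p 0.578). The call of Ccnb1 was lost with a trend on transcript length, GC content and mean subtracted (adjusted p 0.0582). The difference between the cyclin B genes was 0.31 with a 95% interval from 0.09 to 0.54. Cdk1, the kinase they activate, lay at 0.14 with an adjusted p of 0.113, and Ccna2, cyclin A2, at 0.09 with an adjusted p of 0.327 in the authors' deposited table. The activating phosphatases Cdc25b and Cdc25c were not called at 0.12 and 0.03 (adjusted p 0.183 and 0.894, by the authors' deposited table). Cks2, a small subunit of CDK complexes, had the lowest mean of the 54 and a value of -0.19 (SE 0.14, adjusted p 0.381, by the authors' deposited table). Ccnb1 and Cks2 are uncertain, because near-identical copies elsewhere in the mouse annotation match 51.2% and 34.7% of their transcripts at 95% identity or more, and how such reads were assigned is not given in the sources used here.

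The proliferation markers used most often did not both pass the test. Top2a, the topoisomerase that untangles sister chromatids, had the highest mean of the set and a log2 difference of 0.25 (SE 0.060, adjusted p 0.000348, by the authors' deposited table), corresponding to about 34051 and 40528 normalized counts in the groups. Mki67, which encodes the Ki-67 antigen that coats mitotic chromosomes, had a mean of 19891 and a log2 fold change of 0.05 (SE 0.099, adjusted p 0.781, by the authors' deposited table). Its SE was 1.69 times the local median, which is taken over the genes nearest in mean, and its 95% interval ran from -9.36% to 18.7%. Only Cenpf had a larger excess among the mitotic genes, at 2.84 times. Their transcripts are the longest of the set, at 10270 and 11210 bases. Cenpf, a protein of the outer kinetochore, had a fold change of 0.21, close to the median of the set, that was not called (SE 0.19, adjusted p 0.491, by the authors' deposited table). For the other 52 genes the ratio was under 1.5.

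Condensin I compacts chromosomes into rods and consists of 2 SMC proteins and 3 further subunits, all 5 of which had positive values in the authors' deposited table. Ncapg was called at 0.27 (SE 0.057, adjusted p 4.84e-05) and Smc2 at 0.25 (SE 0.069, adjusted p 0.00265, by the authors' deposited table). Smc4, the partner of Smc2, lay at 0.13 (SE 0.059, adjusted p 0.116), Ncaph at 0.09 (adjusted p 0.393) and Ncapd2 at 0.03 (adjusted p 0.777, by the authors' deposited table). The called and uncalled subunits are not all shown to differ. Ncapg exceeded Ncapd2 by 0.23 (95% interval 0.07 to 0.40), whereas Smc2 exceeded Smc4 by 0.12 with an interval from -0.05 to 0.30.

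In the chromosomal passenger complex, which corrects faulty attachments and later marks the cleavage plane, 1 of 4 genes was called in the authors' deposited table. This was Cdca8, borealin, at 0.18 (SE 0.066, adjusted p 0.0346, by the authors' deposited table). Birc5 (survivin) at 0.16, the scaffold Incenp at 0.14 and the kinase Aurkb at 0.09 were not called in the authors' deposited table, with adjusted p-values of 0.0912, 0.0836 and 0.338. The call of Cdca8 was lost with values centred on genes with a mean of at least 100 (adjusted p 0.0551), while Birc5 was called with a trend on transcript length, GC content and mean subtracted (adjusted p 0.00651) and Incenp with values centred on reference genes (adjusted p 0.0485). None of the 6 differences within this complex had a 95% interval that left out 0, so its subunits cannot be ranked.

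The kinetochore genes spanned the whole range of the set. The authors' deposited table had 3 of 7 called positive and 1 called negative. Ndc80, the microtubule-binding core subunit of the kinetochore, had the largest fold change of all 54 genes, 0.45 (SE 0.076, adjusted p 1.37e-07, by the authors' deposited table), which is 36.3% with a 95% interval from 22.9% to 51.1%. This corresponds to about 1490 and 2031 normalized counts in the groups. Cenpe, the kinesin that carries chromosomes to the spindle equator, had 0.35 (SE 0.081, adjusted p 0.000218, by the authors' deposited table). Cenpa, the histone H3 variant that marks the centromere, lay, in the authors' deposited table, at 0.12 and was not called (SE 0.068, adjusted p 0.201).

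The 4 subunits of the NDC80 complex, which form a single rod in equal numbers, had values of either sign. Beside Ndc80 at 0.45, Spc25 was called positive at 0.32 (SE 0.10, adjusted p 0.0102), Nuf2 lay at 0.07 (SE 0.070, adjusted p 0.577) and Spc24 was called negative at -0.31 (SE 0.082, adjusted p 0.00204, by the authors' deposited table). Spc24 corresponds to about 1646 and 1332 normalized counts in the groups, a fall of 19.1% where the other called genes were positive. Ndc80 exceeded its direct partner Nuf2 by 0.38 (95% interval 0.18 to 0.58), and Spc25 exceeded its partner Spc24 by 0.63 (0.37 to 0.88). The difference between Ndc80 and Spc24 was the widest in any complex examined, at 0.75 (0.53 to 0.97). These intervals take the errors of the genes as independent, although all genes share the 6 libraries. Of 27 such pairs within complexes or small families, 12 had an interval that left out 0, without adjustment for the number of pairs.

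Of the spindle checkpoint genes, 3 of 5 were called positive and 0 negative in the authors' deposited table. Bub1, a kinase that recruits checkpoint proteins to the kinetochore, had, in the authors' deposited table, 0.29 (SE 0.061, adjusted p 2.64e-05). Ttk, the MPS1 kinase that starts the signal, had 0.23 (SE 0.070, adjusted p 0.00918), and Mad2l1, which binds and restrains CDC20, had 0.21 (SE 0.071, adjusted p 0.0162, by the authors' deposited table). The call of Mad2l1 was lost with that trend subtracted (adjusted p 0.0539). Bub1b and Bub3, which with MAD2 and CDC20 form the inhibitor of anaphase, lay, in the authors' deposited table, at 0.04 and 0.03 and were not called (adjusted p 0.649 and 0.757). Their intervals reached at most 11.3% and 10.7%. Bub1 exceeded Bub1b by 0.25 (95% interval 0.09 to 0.41).

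Spindle assembly genes had the highest median of any role, 0.27, with 6 of 8 called positive and 0 negative in the authors' deposited table. Kif2c, a kinesin that shortens microtubules at the kinetochore, had, in the authors' deposited table, 0.32 (SE 0.057, adjusted p 1.01e-06). Tpx2, which activates Aurora A on spindle microtubules, had 0.31 (SE 0.054, adjusted p 1.57e-07, by the authors' deposited table), or 24.3% with an interval from 15.5% to 33.7%. Dlgap5 and Nusap1, which stabilise spindle microtubules, both lay, in the authors' deposited table, at 0.28 (adjusted p 6.54e-05 and 0.000919). The chromosome-bound kinesin Kif4 had 0.25 (adjusted p 0.000893), and Kif11, the motor that pushes the spindle poles apart, had 0.19 (adjusted p 0.0204, by the authors' deposited table). Hmmr at 0.19 (adjusted p 0.0725) and Tacc3 at 0.11 (adjusted p 0.184, by the authors' deposited table) were not called. The call of Kif11 was lost with the trend subtracted (adjusted p 0.101), and Hmmr was called with values centred on reference genes (adjusted p 0.0484).

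At anaphase onset, 3 of 4 genes were called positive and 0 negative in the authors' deposited table. Espl1, the separase that cuts cohesin, had, in the authors' deposited table, 0.23 (SE 0.067, adjusted p 0.0044). Ube2c, the ubiquitin-conjugating enzyme of the anaphase-promoting complex, had 0.21 (SE 0.064, adjusted p 0.00689), and Cdc20, the activator of that complex, had 0.17 (SE 0.056, adjusted p 0.0144, by the authors' deposited table). Pttg1, the securin that inhibits separase, lay, in the authors' deposited table, at 0.13 and was not called (SE 0.082, adjusted p 0.305).

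Central spindle and cytokinesis genes were called positive in 6 of 8 cases and negative in 0 in the authors' deposited table. Ect2, the exchange factor that activates RhoA at the cleavage furrow, had, in the authors' deposited table, 0.34 (SE 0.063, adjusted p 1.42e-06), or 26.9% with an interval from 16.4% to 38.3%. The kinesins Kif20b and Kif20a had 0.32 (adjusted p 0.00017) and 0.29 (adjusted p 5.13e-07), and Kif23, a motor of the central spindle, had 0.22 (adjusted p 0.00236, by the authors' deposited table). The microtubule bundler Prc1 lay, in the authors' deposited table, at 0.21 (adjusted p 0.00426) and the furrow scaffold Anln at 0.20 (adjusted p 0.00555). Racgap1, which pairs with Kif23 in the centralspindlin complex, lay at 0.03 (SE 0.056, adjusted p 0.793, by the authors' deposited table), and Kif23 exceeded it by 0.19 (95% interval 0.03 to 0.35). Kif14 was not called at 0.16 (SE 0.091, adjusted p 0.215, by the authors' deposited table).

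Per kilobase of transcript, the mean counts of the mitotic genes had a median of 1251, against 263 over all tested genes with a known length, and 53 of the 54 lay above the latter. Cdc20 was highest at 8950 per kilobase, followed by Ube2c at 8705 and Top2a at 7107, the last of these above 98.6% of those genes. Birc5 came next at 5296, and Kif14 was lowest at 161. Across the 54 genes, which share the libraries, Spearman's rho between fold change and mean was -0.03.

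A further 152 mitotic genes came from lists drawn up by function, also with earlier results of these data known. In the authors' deposited table, 40 of them were called positive, 26.3%, and 11 negative, with a median log2 fold change of 0.11. Of all tested genes 9.05% were called positive and 11.1% negative, and of those with a mean of at least 1000, 12.8% and 15.6%. The median mean count of the 152 genes, 2053, was lower than the 5253 of the 54 genes, and the difference in shares was not tested. Among the other kinetochore genes 11 of 31 were called positive and 1 negative. Spdl1, which brings dynein to kinetochores, had 0.42 (adjusted p 3.14e-05), and Casc5, the scaffold also named Knl1, had 0.38 (adjusted p 0.00343, by the authors' deposited table). Cenpb, a centromeric DNA-binding protein, was the called negative gene at -0.29 (adjusted p 6.61e-05, by the authors' deposited table).

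Cohesin and its regulators had 5 of 15 called positive and 1 negative in the authors' deposited table. The called positive ones included Sgol2a, a shugoshin that protects cohesin, at 0.49 (adjusted p 1.98e-08), the acetyltransferase Esco2 at 0.47 (adjusted p 0.000447) and Cdca5 (sororin) at 0.38 (adjusted p 0.000168, by the authors' deposited table). Smc1a, a core subunit of the ring, was called negative, in the authors' deposited table, at -0.23 (adjusted p 0.00015). The cytokinesis list had 4 of 11 called positive and 0 negative, led by Depdc1a at 0.53 (adjusted p 0.00384), the abscission protein Cep55 at 0.43 (adjusted p 2.67e-06) and the citron kinase Cit at 0.35 (adjusted p 0.00196, by the authors' deposited table).

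Of 17 genes of the anaphase-promoting complex and its regulators, 1 was called positive and 2 were called negative in the authors' deposited table, namely Ube2s at 0.21 (adjusted p 0.0226), Anapc13 at -0.48 (adjusted p 0.000793) and Anapc5 at -0.14 (adjusted p 0.0323). The positive share was 5.88%, beside 9.05% of all tested genes and 12.8% of those with a mean of at least 1000. Nothing is read from it. Condensin II, the sister complex of condensin I, had 0 of 3 specific subunits called by the adjusted p of the authors' deposited table, made with DESeq2, with values from -0.14 to 0.10. At an unadjusted p under 0.05 there was 1, namely Ncaph2 at -0.14.

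Of the other spindle and centrosome genes, 10 of 40 were called positive and 3 negative in the authors' deposited table. The largest values were those of Cep152 at 0.36 (adjusted p 0.000914), the augmin subunit Haus8 at 0.34 (adjusted p 0.00134) and Gtse1 at 0.33 (adjusted p 2.99e-06, by the authors' deposited table). Tubgcp2, a subunit of the gamma-tubulin ring, lay, in the authors' deposited table, at -0.33 (adjusted p 2.24e-06), the augmin subunit Haus7 at -0.31 (adjusted p 0.000857) and the kinesin Kif15 at -0.29 (adjusted p 0.035). The other augmin subunits, Haus1 to Haus6, were not called and ranged from -0.08 for Haus5 to 0.16 for Haus3. Whether augmin held more calls than other abundant genes was not tested, so the opposite signs of Haus8 and Haus7 are not read as a trait of the complex.

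Other regulators of entry had 5 of 16 called positive and 2 negative in the authors' deposited table. Ccnf, cyclin F, had, in the authors' deposited table, 0.42 (adjusted p 3.08e-11), Mastl, the Greatwall kinase that holds back phosphatase PP2A, had 0.36 (adjusted p 0.000316), and Pbk had 0.33 (adjusted p 0.0017). The called negative genes were Wee1 at -0.27 (adjusted p 0.000549) and Pkmyt1 at -0.26 (adjusted p 0.00984, by the authors' deposited table), the kinases that put inhibitory phosphates on CDK1. Among the transcription regulators of the cell cycle, 4 of 19 were called positive, 21.1%, and 2 negative. Over all tested genes the shares were 9.05% and 11.1%, and over those with a mean of at least 1000, 12.8% and 15.6%. The largest values of the list were those of Rb1 at 0.39 (adjusted p 0.00768), Rbl2 at 0.30 (adjusted p 0.00742) and Tfdp2 at 0.29 (adjusted p 0.0104, by the authors' deposited table). E2f4 and E2f5 were called negative, in the authors' deposited table, at -0.31 (adjusted p 0.00012) and -0.28 (adjusted p 0.033).

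**Figure D3:**
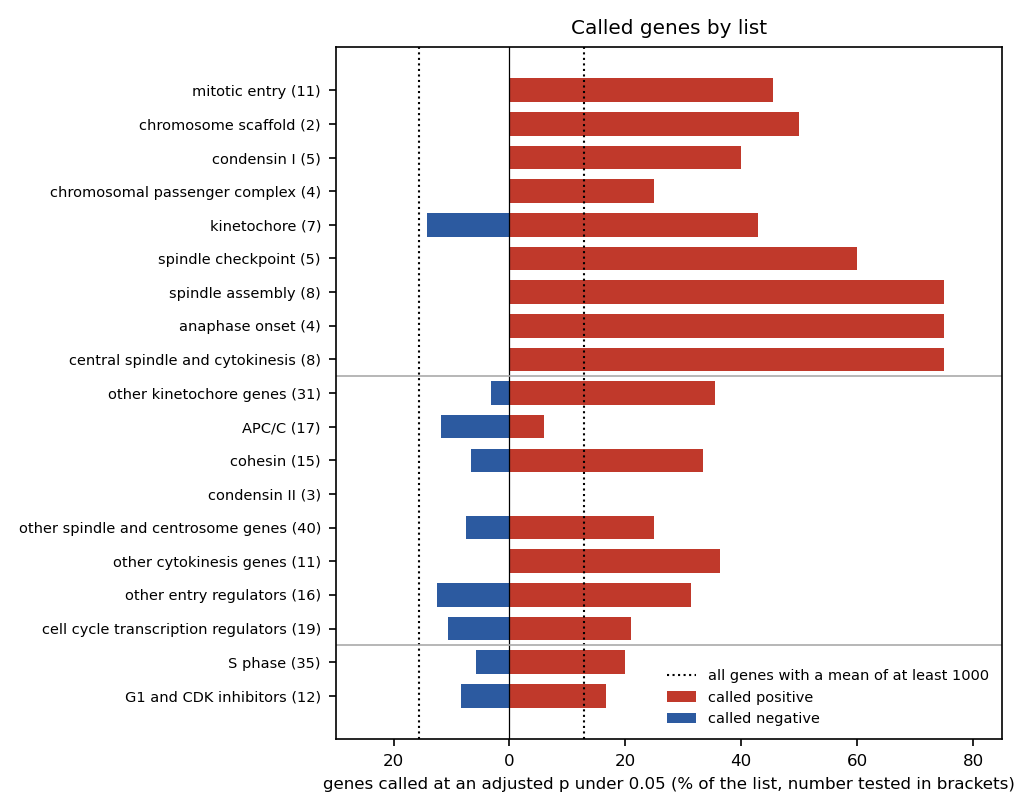
Share of each list called positive (red, to the right) and negative (blue, to the left) in percent of its tested genes, whose number stands in brackets; dotted lines mark the shares of all genes with a mean of at least 1000, 12.8% and 15.6%. Spindle assembly, anaphase onset and cytokinesis members reach 75%. The anaphase-promoting complex (APC/C) lies at 5.88%, below the dotted line at 12.8%, and all tested genes lie at 9.05%.

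The S phase list, replication and nucleotide genes of the preceding part of the cycle, had 7 of 35 called positive, 20%, and 2 negative in the authors' deposited table, and its median was 0.05. The called positive genes included the ribonucleotide reductase subunits Rrm2 at 0.23 (adjusted p 0.0025) and Rrm1 at 0.22 (adjusted p 0.000856), and Lig1 at -0.27 (adjusted p 1.48e-05) and Mcm3 at -0.15 (adjusted p 0.038, by the authors' deposited table) were called negative. Whether the S phase and mitotic lists differ from each other was not tested, since genes of 1 table are not replicates. Of 12 G1 cyclins, kinases and CDK inhibitors, 2 were called positive, 16.7%, and 1 negative. Of all tested genes 9.05% were called positive and 11.1% negative, and of those with a mean of at least 1000, 12.8% and 15.6%. No result about the S phase or G1 list is read from these counts. Cdkn1a, the inhibitor p21, had 0.62 (SE 0.071, adjusted p 1.81e-16, by the authors' deposited table), Cdkn2d had 0.32 (adjusted p 0.0161) and Cdkn1b, the inhibitor p27, had -0.25 (adjusted p 0.0193).

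**Figure D4:**
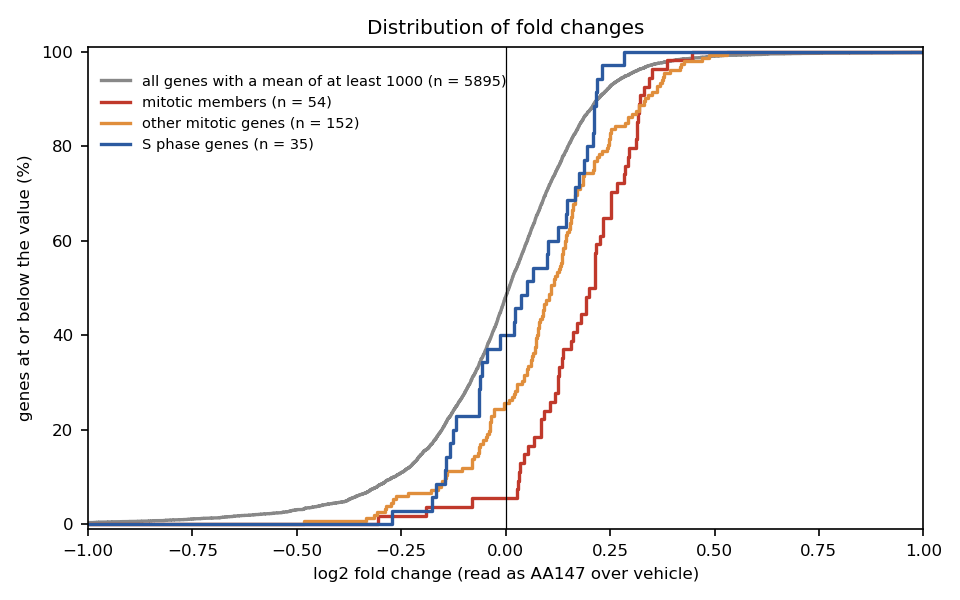
Cumulative share of genes (vertical, percent) at or below each log2 fold change (horizontal) for the 54 mitotic members, 152 other mitotic genes, 35 S phase genes and the 5895 abundant genes (mean of at least 1000). The medians step down from 0.21 for the members through 0.11 and 0.05 to 0.01.

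The promoters of the mitotic genes were examined for elements that they share. The genes were chosen by function, with earlier results of these data known, and the sequences are those of the reference genome. The shares of motifs below thus describe the gene set as chosen and hold no measurement of AA147. RefSeq promoters, which here span 250 bases before to 50 bases after an annotated start on GRCm38.p6, were matched for 44 of the 54 genes, in 47 entries. The cell cycle genes homology region (CHR), the element bound by MuvB, was searched as TTTGAA or TTCGAA, and the CCAAT box, bound by NF-Y, as CCAAT, both on either strand. A CHR was found for 33 of the 44 genes, 75%, against 16.5% of 9587 tested genes with a promoter in the table and 19.2% of all 32851 promoters. A CCAAT box was found for 33 of the 44 genes as well, against 43.9% of the tested genes and 37.4% of all promoters. Both were found for 29 genes, 65.9%, against 7.07% of the tested genes. The antioxidant response element, to which NRF2 binds, was searched as TGACNNNGC and found for 9 of the 44 genes, 20.5%, against 16.8% of the tested genes. In 1 of the 44 genes a CHR and a CCAAT box overlapped.

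The CHR lay close to the start. Of its 48 matches in the 47 promoters, 33 (68.8%) began within the 50 bases before the start or after it, a stretch that is 33.3% of the window. Their median position was -10, whereas the 80 CCAAT boxes had a median position of -66. Ect2, Prc1 and Bub3 have more than 1 overlapping entry, so some of their sites are counted more than once. CHR positions in other genes were not examined. In 15 of the 44 genes, 34.1%, a CCAAT box began 25 to 45 bases before a CHR, against 1.00% of the tested genes, a spacing chosen after the positions were seen. Whether genes with and without a CHR differ was not tested. The 33 genes with a CHR had a median log2 fold change of 0.21 and 21 calls in the positive direction, and the 11 without one had 0.16 and 5 calls.

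**Figure D5:**
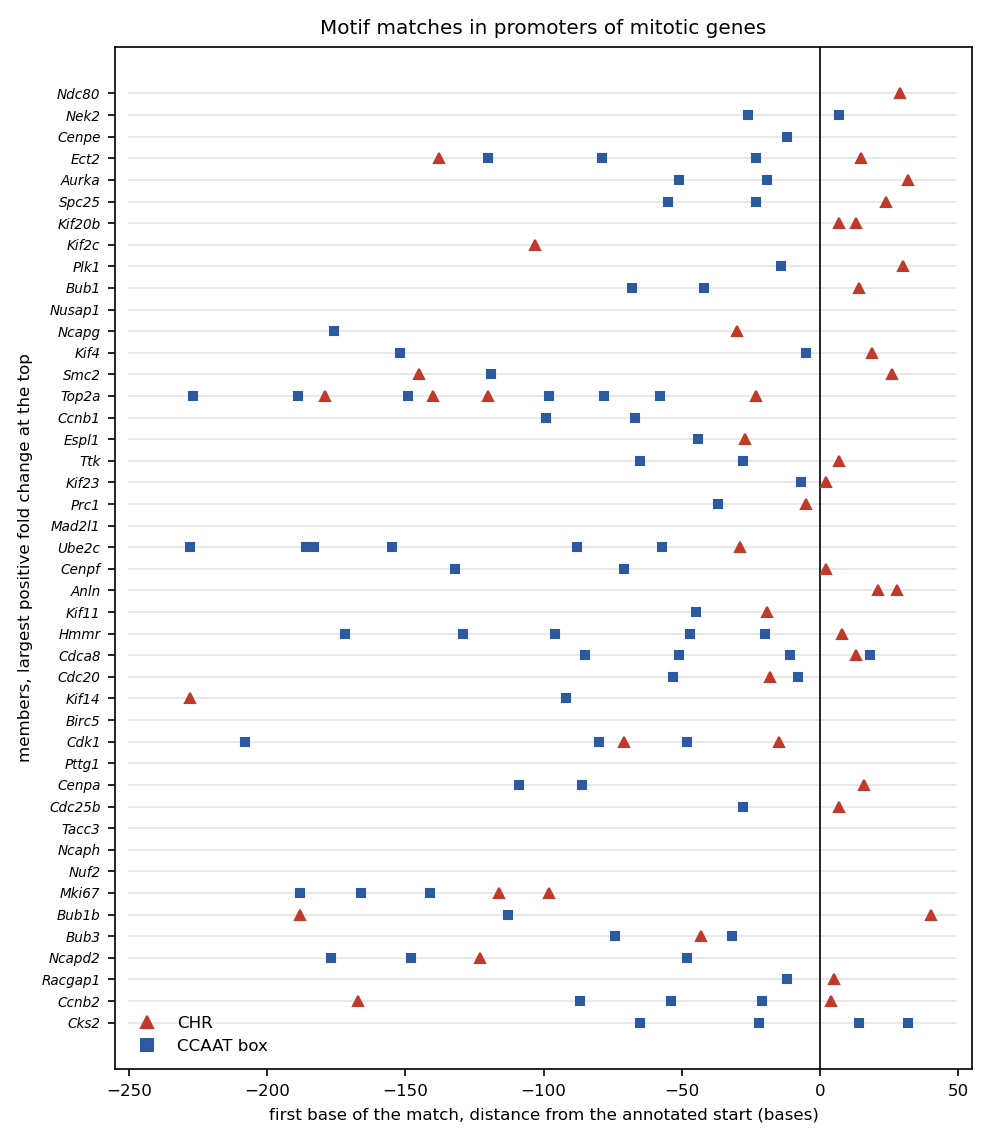
Positions of CHR (red triangles) and CCAAT box (blue squares) matches in the 44 matched promoters, as distance in bases of the first base of the match from the annotated start; genes are ordered by fold change, and the first entry is drawn for genes with several. CHR matches gather around the start and CCAAT boxes before it, from the top of the order to genes near its end such as Racgap1 and Ccnb2.

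The 100 bases before the start are shown for the 8 genes in which both elements lie wholly inside that stretch, to show their arrangement, and for Ndc80, which had the largest fold change and only a CHR, after its start. They read 5′ to 3′ on the strand of the gene, in GRCm38.p6 coordinates of RefSeq, with matches to a CHR or a CCAAT box on either strand in capitals.
Ndc80 (chr17:71526858-71526957, minus strand): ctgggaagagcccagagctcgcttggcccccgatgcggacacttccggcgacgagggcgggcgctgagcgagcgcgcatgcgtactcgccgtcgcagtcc
Top2a (chr11:99024190-99024289, minus strand): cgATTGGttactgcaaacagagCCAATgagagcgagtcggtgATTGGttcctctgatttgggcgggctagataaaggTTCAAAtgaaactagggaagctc
Espl1 (chr15:102296193-102296292, plus strand): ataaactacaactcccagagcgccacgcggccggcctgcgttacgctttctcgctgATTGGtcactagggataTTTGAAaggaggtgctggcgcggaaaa
Prc1 (chr7:80294376-80294475, plus strand): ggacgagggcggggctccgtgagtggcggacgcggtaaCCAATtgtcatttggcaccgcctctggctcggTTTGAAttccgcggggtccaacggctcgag
Ube2c (chr2:164769829-164769928, plus strand): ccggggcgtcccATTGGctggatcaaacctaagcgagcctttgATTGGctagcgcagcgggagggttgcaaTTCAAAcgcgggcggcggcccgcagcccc
Kif11 (chr19:37376282-37376381, plus strand): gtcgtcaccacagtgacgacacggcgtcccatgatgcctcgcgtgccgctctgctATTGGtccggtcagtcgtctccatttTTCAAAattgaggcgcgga
Cdc20 (chr4:118437344-118437443, minus strand): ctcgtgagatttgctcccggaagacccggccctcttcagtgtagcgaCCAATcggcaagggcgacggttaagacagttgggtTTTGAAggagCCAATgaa
Cdk1 (chr10:69352913-69353012, minus strand): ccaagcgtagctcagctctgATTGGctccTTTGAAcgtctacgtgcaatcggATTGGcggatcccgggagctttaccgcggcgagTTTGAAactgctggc
Bub3 (chr7:131560270-131560369, plus strand): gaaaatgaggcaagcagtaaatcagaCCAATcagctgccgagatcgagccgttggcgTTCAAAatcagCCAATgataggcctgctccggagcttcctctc

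Among these 8 genes the fold changes in the authors' deposited table went from 0.25 for Top2a, 0.23 for Espl1, 0.21 for Prc1 and Ube2c, 0.19 for Kif11 and 0.17 for Cdc20, all called positive, to 0.14 for Cdk1 and 0.03 for Bub3, which were not called. Both elements thus stood before called and uncalled genes alike. Spc24 was among the 10 genes with no matched promoter.

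The median GC content of the 54 transcripts was 47.2%, against 50.6% for abundant genes (mean of at least 1000), and their median length was 3450 bases against 3702. With a trend on length, GC content and mean expression subtracted, 28 of the 54 genes were called positive and 1 negative, with a median of 0.19, and 28 of the 31 calls were kept. The trend shifted the mitotic genes by a median of 0.00, with a range from -0.09 to 0.08. The libraries are non-stranded per the labels, so reads from overlapping genes cannot be told apart. Exons of 13 mitotic genes overlapped those of another gene in the table. Of the 16 overlapping genes, Smc2os and Nostrin, with means of 2.01 and 1.78, had no adjusted p and could not be called. Of the rest 1 was called, beside 20.2% of all tested genes in either direction. This was Oip5 at 0.32 (adjusted p 0.00605, by the authors' deposited table), which shares 239 exonic bases with Nusap1.

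The label calls HT22 cells neurons. Of 14 neuronal markers only 3 had a value in the authors' deposited table, with means of 1199 for Tubb3, 6.24 for Stmn2 and 3.93 for Slc17a7, while 7 of 8 fibroblast markers were listed, with means from 181 for Dcn to 254004 for Col1a2. Of those 7, 6 were called negative, with Col1a1 at -1.52 (adjusted p 6.32e-115), and Tubb3 was called positive, in the authors' deposited table, at 0.43 (adjusted p 5.67e-05). The other neuronal markers, Stmn2 at -1.53 and Slc17a7 at -1.98, have no adjusted p in the authors' deposited table. Markers with a value numbered 0 of 4 for neural progenitors, 2 of 5 for astrocytes, 2 of 4 for oligodendrocytes and 2 of 5 for microglia. The 2 astrocyte markers lay at -1.30 and -0.48, and 1 of them was called negative. Of the microglia markers, whose means were at most 48.0, 1 was called positive, at 0.95. Of the oligodendrocyte markers 0 were called. Of 12 reference genes, 1 was called positive and 2 negative in the authors' deposited table, and their median was -0.01. The part of the marker changes in the mitotic result was not tested.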

How the data were processed

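mRNA of 6 HT22 libraries, 3 per group, was sequenced without strand information, per the labels' protocols. DESeq2 and the mouse build mm9 are named per the submitters' processing notes; the aligner, counter, annotation and model are not given in the sources used here. Per the file headers, the deposited values of a gene are its mean normalized count (a signal, not whole reads), a log2 fold change and its SE, a test statistic (a score, equal to their ratio within 3.06e-07) and both raw and adjusted p-values. Adjusting the raw p-values of the 13597 tested genes by Benjamini-Hochberg gave the deposited adjusted p-values. Single libraries, their depth, and edgeR or DESeq2 refits were not analysed here.

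Each gene list was described by its calls and median beside all tested genes. The 95% intervals are 1.96 SE wide on either side. Group averages are implied by the mean and the fold change with equal groups. All members were named; from other lists the called genes with the 3 largest values in each direction, of which some are not reported here. The members and lists were chosen with earlier results of these data known. Transcript lengths, GC content, overlaps and copies (BLAST 2.17.0, at least 95% identity over 30% of the transcript) came from GENCODE M39 canonical transcripts on GRCm39, another build than the authors', so no coordinate of it is printed. Of the list genes, 4 were matched by an older symbol. SEs were compared with the median of the genes nearest in mean. The trend came from a Huber regression on linear and squared terms, fitted to 10109 genes with a mean of at least 100. Alternatives were other thresholds, adjustments, null interval, null width, centres and trend subtraction. The code was tested on simulated data. Tools were statsmodels 0.14.6, SciPy 1.17.1, NumPy 2.4.6, pandas 2.3.3 and matplotlib 3.10.9 under Python 3.11.15.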

Additional observations from a re-analysis of the deposited data

How the results depend on the processing

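No paired analysis was possible because only values per gene, with no columns for libraries, were analysed here. Leaving out each replicate, other normalizations, count filters and edgeR or DESeq2 refits were therefore not run. The count of 31 called mitotic genes was 31 with the adjustment over all genes, 30 centred on genes with a mean of at least 100, 33 centred on reference genes, 29 with the trend subtracted and 25 at an adjusted p under 0.01. It was 11 with a Bonferroni adjustment, all positive, 1 (Ndc80) against a null interval of 0.2 with 5 at an unadjusted p under 0.05, and 0 with the DESeq2 statistic divided by its robust SD of 2.03, where 15 had an unadjusted p under 0.05 and 347 of all genes were called; each is stricter by construction, and in the last, all spread of the statistic counts as error. The median of 0.21 was 0.19 to 0.22 under the other centres and the trend and the plain mean was 0.18, and no single gene changed sign under centring or trend subtraction. Calls were lost for Ccnb1, Mad2l1 and Kif11 with the trend subtracted and for Cdca8 centred on genes with a mean of at least 100, and were gained for Birc5 with the trend and for Incenp and Hmmr centred on reference genes.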
